A study of Mus musculus with 6 samples.

Results

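The genes described here are 5 matrix metalloproteases, Mmp9, Mmp12, Mmp13, Mmp14 and Mmp19, and 3 of the tissue inhibitors of metalloproteases, Timp1, Timp2 and Timp3. They were chosen by symbol, with earlier results of these data known, and are 8 of the 32285 genes in the count tables. Their unique molecular identifiers (UMIs, each standing for 1 captured RNA molecule) were summed in every library over 5 classes of cells gated on marker genes, namely neutrophils, monocytes, macrophages, dendritic cells and tumor cells. These classes held 29086 of the 51633 cells kept, those with at least 250 genes and at most 5% of UMIs from mitochondrial genes.

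Matrix metalloproteases are zinc-dependent enzymes that cut collagens, elastin, fibronectin and other proteins outside the cell. Most are secreted as inactive precursors and are switched on when another protease removes their propeptide. The Timp proteins bind the active enzymes and block them, so that the activity around a cell depends on the amounts of both and on activation, which RNA levels do not show. In tumors, neutrophils and macrophages are well known sources of several of these enzymes, which take part in invasion, vessel growth and the release of growth factors stored in the matrix.

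The study asked how blocking glycans on ovarian tumors changes the response to antibody against PD-L1, an immune checkpoint ligand. KPCA, an HR-proficient mouse ovarian cancer line, was implanted into the ovarian bursa of female C57BL/6 mice aged 6 to 8 weeks, and all 6 groups carried this tumor. The control mouse received solvent and rat IgG. 2-Deoxy-D-glucose (2DG), a sugar analog used against branched N-glycans, was injected at 500 mg/kg every 2 days from day 9. 2F-Peracetyl-Fucose (2FF), a fucose analog that blocks fucosylation, was given by gavage every 2 days, and in the 2FF groups the tumor cells had also been kept in 300 uM 2FF for 3 days before implantation. Anti-PD-L1 was given at 5 mg/kg, 2 times a week for 3 weeks. The remaining groups received 2DG or 2FF together with anti-PD-L1 (below, the 2DG combination and the 2FF combination), and mice were killed on day 30. The methods thus describe tumors of young mice, whereas the tissue entry of every sample reads lymph node and the design line speaks of aged mice too. Of 4 lymph node stroma markers (Ccl19, Ccl21a, Madcam1 and Cr2), the summed level was at most 1.42 CPM (the gene's UMIs scaled to the class total, on the usual per-million scale) in any of the classes, and tumor cells by keratin markers were 46 in all, so neither label could be settled from these genes.

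Each group was 1 mouse and 1 library without a replicate, and no treatment was tested. Differences compare single libraries. "Rose" and "fell" are used below for changes past 2-fold in log2(CPM + 5), for genes with at least 50 UMIs over both libraries. The 95% intervals are exact Poisson intervals for levels and Clopper-Pearson intervals for shares, and express the error of counting alone, since the spread between mice is unknown. Libraries held 59741689 to 72277591 UMIs in kept cells, and any pair of libraries shared 12 to 27 cell barcodes. The control library stood apart. It held 3616 neutrophils, 39.8% of its kept cells, against 3.37% to 5.99% in the treated libraries, and all 3 comparisons with control rest on it. Neutrophil markers summed to 1135 CPM in its monocytes, against 326 to 619 CPM in monocytes of the treated libraries. The median ratio of all genes to control lay 0.15 to 0.23 above 0 on the log2 scale in neutrophils and 0.11 to 0.15 above 0 in monocytes. The gates were set on their own markers, so finding these among the leading genes is no check of the gates. The leading genes of the neutrophil, monocyte, macrophage and dendritic gates included 6, 6, 6 and 3 of their own markers among the top 10. The tumor gate had 2 of its own markers there, Krt18 and Krt8, behind Hmga2, and its cells, 0 in the control, 10 with 2DG, 17 with 2FF, 2 with anti-PD-L1, 5 with the 2DG combination and 12 with the 2FF combination, were too few for a firm value.

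In GRCm38 the annotation places Mmp12 (ENSMUSG00000049723) at chr9:7344381-7369499 and Mmp13 (ENSMUSG00000050578) at chr9:7272514-7283331, both on the plus strand of one metalloprotease cluster. Mmp9 (ENSMUSG00000017737) lies at chr2:164940780-164955850, Mmp14 (ENSMUSG00000000957) at chr14:54431612-54445364 and Mmp19 (ENSMUSG00000025355) at chr10:128790910-128800824, inside the antisense gene Gm47093. Timp1 (ENSMUSG00000001131) lies at chrX:20870166-20874735 inside Syn1, Timp2 (ENSMUSG00000017466) at chr11:118301069-118355740, and Timp3 (ENSMUSG00000020044) at chr10:86300372-86349506 inside Syn3. Both Syn genes run on the opposite strand, while Cep295nl overlaps Timp2 on the same strand without overlap of exons. Exons of Syn3 overlap those of Timp3, exons of Mmp1b overlap those of Mmp12, and exons of Gm47093 and Tmem198b overlap those of Mmp19, all on opposite strands.

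Mmp12 and Mmp13 both fell in monocytes in every comparison with control. After this was seen, promoters were searched for the AP-1 motif TGACTCA on both strands (TGAGTCA on the other). RefSeq promoter windows in build GRCm38.p6, from 250 bases before to 50 bases after each start site, were at hand for 6 of the 8 genes (7 windows). The motif occurred in the windows of Mmp12, at the second of 2 start sites, and of Mmp13. Across the genome 1709 of 32851 windows (5.20%) held it. The 30 bases around each match, on the plus strand with the motif in capitals, are shown because both genes fell in monocytes. Mmp19, which fell there too, had no window. They lie at chr9:7347319-7347348 for Mmp12, with the motif's first base 44 bases before the start, and at chr9:7272468-7272497 for Mmp13, with the first base 35 bases before the start.
Mmp12: gacatcaacagTGAGTCAgatagaggattt
Mmp13: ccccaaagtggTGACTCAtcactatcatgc
A match is a description of the letters and not a measured binding site. Mmp14, which fell in monocytes with 2DG, had a window without the motif. Whether AP-1 had a part in any of these changes was not tested.

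Mmp9, a gelatinase stored in neutrophil granules, was a neutrophil gene in all 6 libraries. Its level in neutrophils, with its 95% interval, was 255 CPM (248 to 262) in the control, 778 (738 to 821) with 2DG, 649 (615 to 684) with 2FF, 693 (649 to 740.2) with anti-PD-L1, 569 (526 to 614) with the 2DG combination and 460.0 (429 to 492) with the 2FF combination. The control was the lowest and its interval did not overlap those of the other libraries. Mmp9 rose in neutrophils of each single-treatment library over control, with log2 ratios of 1.59 with 2DG, 1.33 with 2FF and 1.42 with anti-PD-L1, or 3.05-, 2.54- and 2.72-fold. With TMM scaling the 2FF ratio was 0.96, short of 2-fold. The share of neutrophils with an Mmp9 UMI was 40.8% in the control, 73.3% with 2DG, 66.3% with 2FF, 51.9% with anti-PD-L1, 63.2% with the 2DG combination and 49.1% with the 2FF combination. After each cell was thinned to 1000 UMIs the shares were 17.6% in the control, 48.3% with 2DG, 42.4% with 2FF, 35.8% with anti-PD-L1, 39.3% with the 2DG combination and 28.1% with the 2FF combination, again lowest in control. In T cells, where little is expected, 1.14 to 3.3% of cells had an Mmp9 UMI and the level was 2.92 to 8.3 CPM, highest in control. Of macrophages, monocytes and dendritic cells, macrophages were the highest, at 1.62 to 10.9 CPM, 26.1- to 283-fold below neutrophils, though T cells were above macrophages in the 2DG, 2DG combination and 2FF combination libraries. In macrophages Mmp9 fell from 10.9 CPM with 2FF to 1.62 CPM with 2FF plus anti-PD-L1 (log2 ratio -1.26), on 199 and 23 UMIs, but not with a stricter gate (-0.52) or with equal weight per cell. Monocytes held 0.545 to 5.94 CPM, no higher than the highest T cell level, and dendritic cells at most 0.864 CPM.

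**Figure D1:**
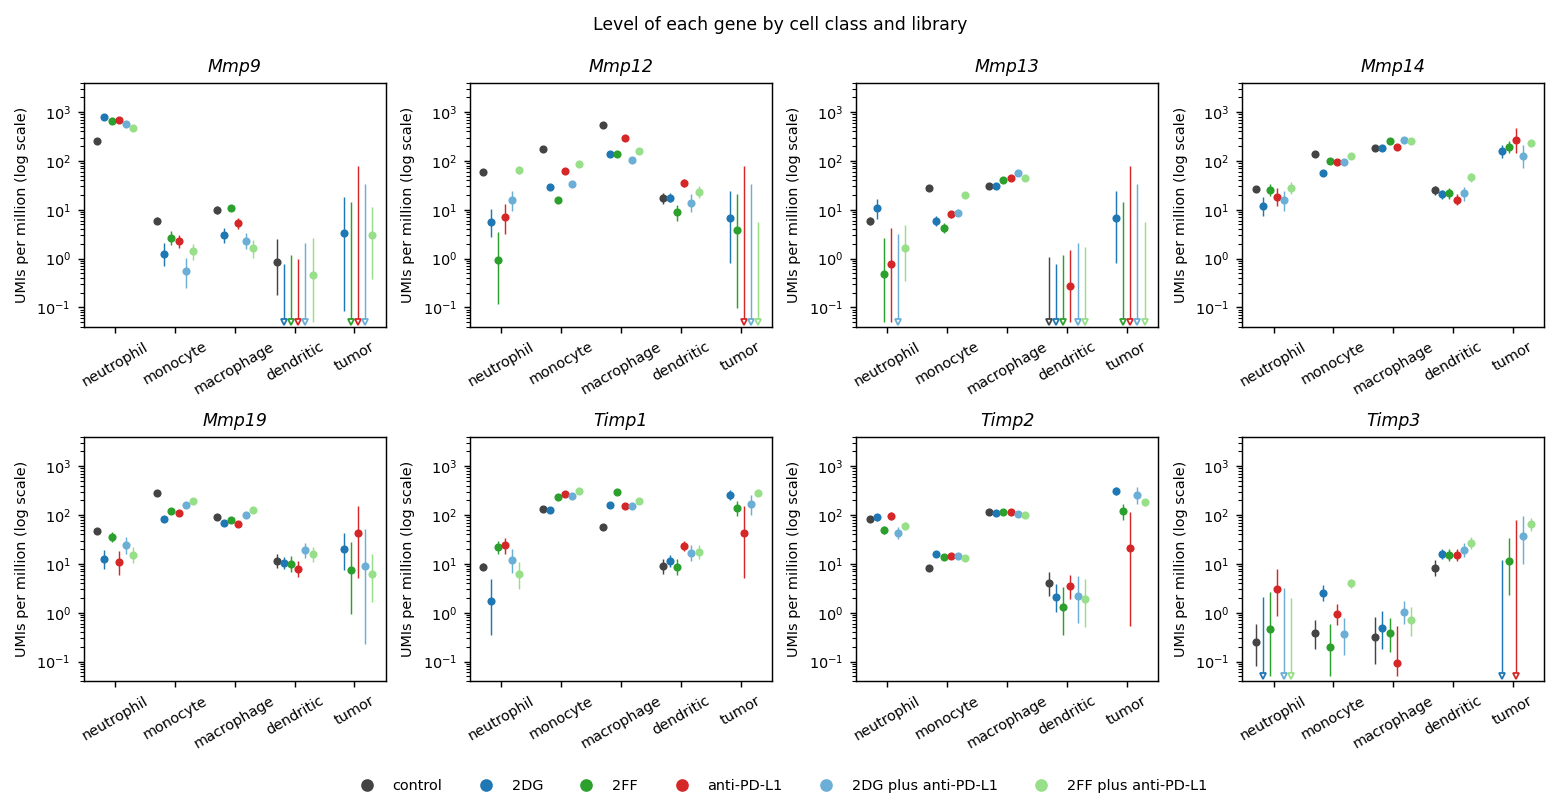
Level of each gene (CPM, log axis) by gated class, 1 point per library with 95% Poisson bars. Open triangles at the foot of an axis are libraries with 0 UMIs. Mmp9 in neutrophils sits between 255 and 778 CPM with the control lowest, and Mmp12 in macrophages between 106 and 530 CPM with the control highest.

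Among neutrophils, monocytes, macrophages and dendritic cells, Mmp12, the macrophage elastase, was highest in macrophages of every library. Mmp12 was lower there in all treated libraries than in control. In macrophages its level was 530.3 CPM (518 to 543) in the control, 139.7 (133 to 147) with 2DG, 135 (130.1 to 141) with 2FF, 290.4 (280.2 to 301) with anti-PD-L1, 106 (101 to 111) with the 2DG combination and 163 (156 to 169) with the 2FF combination. None of the treated intervals reached the control's. Mmp12 fell with 2DG (log2 ratio -1.89, interval of the plain CPM ratio -2.0 to -1.85) and with 2FF (-1.93, interval -2.04 to -1.90). With anti-PD-L1 alone the log2 ratio was -0.86, short of 2-fold. Among the treated libraries, Mmp12 in macrophages fell with 2DG plus anti-PD-L1 against anti-PD-L1 alone (log2 ratio -1.41). The share of macrophages with an Mmp12 UMI was 31.7% in the control, 14.5% with 2DG, 14.3% with 2FF, 22.9% with anti-PD-L1, 12.4% with the 2DG combination and 15.9% with the 2FF combination, the same order at both ends. These shares are of cells not thinned to equal depth. Control macrophages were deeper, with a median of 12331 UMIs against 8653 to 9778 in the treated libraries.

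Monocytes carried less Mmp12, at 179 CPM in the control, 29.2 with 2DG, 15.7 with 2FF, 62.9 with anti-PD-L1, 34.1 with the 2DG combination and 84.3 with the 2FF combination. Here Mmp12 fell in each single-treatment library against control, by 6.14-fold with 2DG, 11.4-fold with 2FF and 2.85-fold with anti-PD-L1 as the plain CPM ratio. The log2 ratios were -2.43, -3.15 and -1.44. Mmp12 rose 5.36-fold in monocytes when anti-PD-L1 was combined with 2FF, against 2FF alone (log2 ratio 2.11). The T cells of the control library also held more Mmp12, 35.1 CPM against 3.13 to 11.1 CPM in the T cells of the treated libraries. NK and B cells had another order. Control NK cells, 31 in number, held 0 CPM of Mmp12, the lowest, and NK cells with 2FF the highest, 44.3 CPM. B cells were highest with anti-PD-L1, at 21 CPM. What part RNA from other cells had in the control's monocyte value was not tested.

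In neutrophils most Mmp12 UMIs came from very few cells. There were 1178 UMIs in the control, 10 with 2DG, 2 with 2FF, 9 with anti-PD-L1, 18 with the 2DG combination and 120 with the 2FF combination, and the levels were 58.7 CPM in the control, 5.67 with 2DG, 0.95 with 2FF, 6.96 with anti-PD-L1, 15.6 with the 2DG combination and 66.1 with the 2FF combination. Of the 1178 control UMIs, 78.8% were in 1% of the neutrophils, and of the 120 UMIs with 2FF plus anti-PD-L1 this share was 98.3%. The log2 ratios to control were -2.58 with 2DG, -3.42 with 2FF and -2.41 with anti-PD-L1, and they became -1.96, -1.81 and -0.52 once cells with at least 3 markers of a second class were left out, which ends the call for anti-PD-L1. Macrophage markers summed to 408 CPM in control neutrophils, against 446 to 639 CPM in neutrophils of the treated libraries. Mmp12 in neutrophils rose with 2FF plus anti-PD-L1 against anti-PD-L1 (log2 ratio 2.57) and over 2FF (3.58), on these few cells. Dendritic cells held 8.8 to 35.1 CPM, and there Mmp12 fell with 2DG plus anti-PD-L1 against anti-PD-L1 (-1.08) and rose with 2FF plus anti-PD-L1 against 2FF (1.05). With every cell given equal weight these 2 ratios were 0.34 and 0.10, so the first turned direction.

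Mmp13, a collagenase that cuts fibrillar collagen, was low and, among the same classes as Mmp12, was led by macrophages. Macrophage levels were 31.2 CPM in the control, 30.7 with 2DG, 41.2 with 2FF, 45.6 with anti-PD-L1, 55.7 with the 2DG combination and 44.3 with the 2FF combination, with the control and 2DG libraries lowest and no change past 2-fold in any comparison. Monocytes held 27.3 CPM in the control, 5.92 with 2DG, 4.27 with 2FF, 8.14 with anti-PD-L1, 8.78 with the 2DG combination and 20.3 with the 2FF combination. The control was the highest, and its monocyte and macrophage intervals overlapped, while in the treated libraries macrophages stood 2.18- to 9.65-fold above the next class. In monocytes Mmp13 fell against control with 2DG (log2 ratio -1.56), 2FF (-1.80) and anti-PD-L1 (-1.30), and rose with 2FF plus anti-PD-L1 over 2FF (1.45). Neutrophils held 0 to 10.8 CPM, wholly from 1% of their cells, and in dendritic cells 1 UMI was found over all libraries.

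Mmp14, a membrane-bound protease that activates the gelatinase proMmp2, was spread over more classes. Macrophage levels were 182 CPM in the control, 187 with 2DG, 256 with 2FF, 195 with anti-PD-L1, 262 with the 2DG combination and 251 with the 2FF combination, 1.44-fold from lowest to highest. With the few tumor cells left out, monocytes followed with 136 CPM in the control, 57.8 with 2DG, 102 with 2FF, 93.9 with anti-PD-L1, 96.8 with the 2DG combination and 127 with the 2FF combination, highest in control, and macrophages stood 1.34- to 3.23-fold above them. Mmp14 fell in monocytes with 2DG (log2 ratio -1.16), and it rose in dendritic cells from 16 CPM with anti-PD-L1 to 46.2 CPM with 2FF plus anti-PD-L1, a 2.88-fold difference on 59 and 98 UMIs. The other dendritic libraries held 20.5 to 24.8 CPM. In neutrophils Mmp14 was 11.9 to 28.1 CPM, without a change past 2-fold. T cells, like monocytes, held the most Mmp14 in control (12.8 CPM) and the least with 2DG (5.12 CPM). NK and B cells held the most with 2FF, 23.3 and 18.2 CPM. What part RNA from other cells had in the monocyte values was not tested.

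Mmp19, a soluble protease of basement membrane proteins, was led by monocytes in all 6 libraries, among the same classes as Mmp12. Its monocyte level was 281 CPM (274 to 287) in the control, 84.1 (79 to 89.5) with 2DG, 121 (115 to 127) with 2FF, 109 (104 to 114) with anti-PD-L1, 161 (155 to 168) with the 2DG combination and 194 (188 to 199) with the 2FF combination. The control was highest and 2DG lowest, without overlap. Mmp19 fell in monocytes with 2DG (log2 ratio -1.68), 2FF (-1.18) and anti-PD-L1 (-1.33). In macrophages, at 90.9 CPM in the control, 67.9 with 2DG, 77.3 with 2FF, 64.9 with anti-PD-L1, 102 with the 2DG combination and 128 with the 2FF combination, the libraries had another order and no change passed 2-fold. Neutrophils held 47.4 CPM in the control, 12.5 with 2DG, 35.1 with 2FF, 10.8 with anti-PD-L1, 24.3 with the 2DG combination and 15.4 with the 2FF combination, with 54.7% of the control's UMIs in 1% of cells. The neutrophil ratio fell past 2-fold with 2DG (-1.59) and anti-PD-L1 (-1.73), but without cells of mixed markers these were -0.31 and -0.98, no longer past it. Control T cells held 30.7 CPM of Mmp19 against 3.35 to 8.1 CPM in the treated libraries. In NK and B cells Mmp19 was highest with 2FF instead, at 12 and 20.2 CPM. The part of free RNA in the control values was not tested. Dendritic cells held 7.89 to 18.9 CPM. Gm47093, an antisense gene that spans Mmp19, followed it across classes and libraries (Pearson r = 0.919, described further below).

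Timp1, the inducible inhibitor, rose in macrophages of every single-treatment library over control. Macrophage levels were 56.3 CPM (52.2 to 60.7) in the control, 161 (154 to 168) with 2DG, 295 (287 to 303) with 2FF, 155 (148 to 163) with anti-PD-L1, 153 (147 to 160.1) with the 2DG combination and 192 (185 to 199) with the 2FF combination, and all treated intervals lay above the control's. The log2 ratios were 1.43 with 2DG, 2.29 with 2FF and 1.39 with anti-PD-L1, or 2.85-, 5.24- and 2.76-fold. Combining either analog with anti-PD-L1 brought no change past 2-fold in macrophages against any single treatment compared. T cells, too, held the least Timp1 in control, 2.87 CPM, and the most with 2FF, 17.6 CPM. NK, tied and ungated cells had the same extremes. B cells did not, with the least under anti-PD-L1 (1.5 CPM) and the most with the 2FF combination (41 CPM). What part RNA from other cells had in the macrophage values was not tested. Monocytes held 132 CPM in the control, 129 with 2DG, 237 with 2FF, 266 with anti-PD-L1, 250.2 with the 2DG combination and 304 with the 2FF combination, and here the ratios to control were -0.03, 0.82 and 0.98. The last lies at the limit. It is 2.01-fold as the plain ratio, and it passed 2-fold with 1 CPM added, the 10% mitochondrial limit, the stricter gate, thinning or equal weight per cell. Of neutrophils, monocytes, macrophages and dendritic cells, monocytes therefore led in 4 libraries, and macrophages led 1.24-fold with 2DG and 1.25-fold with 2FF. The few tumor cells, described below, are left out of this order.

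In neutrophils Timp1 was sparse, at 8.82 CPM in the control, 1.7 with 2DG, 21.8 with 2FF, 24 with anti-PD-L1, 12.2 with the 2DG combination and 6.06 with the 2FF combination on 177 UMIs in the control, 3 with 2DG, 46 with 2FF, 31 with anti-PD-L1, 14 with the 2DG combination and 11 with the 2FF combination. It fell with 2DG against control (-1.04, on 3 UMIs), rose with anti-PD-L1 (1.07) and fell with 2FF plus anti-PD-L1 against 2FF (-1.28, or -0.93 with equal weight per cell). T cells held 2.87 to 17.6 CPM, so these neutrophil levels lie near that of a class that should have little. The anti-PD-L1 call in neutrophils was kept in 4 of 8 settings that gave a value. Dendritic levels were 8.93 CPM in the control, 11.6 with 2DG, 8.8 with 2FF, 23.4 with anti-PD-L1, 16.7 with the 2DG combination and 17.4 with the 2FF combination, and Timp1 rose there with anti-PD-L1 over control (1.03), but without cells of mixed markers the ratio was 0.44. The tumor gate gave rises of 2.62 with 2FF plus anti-PD-L1 against anti-PD-L1 and 1.02 over 2FF, the former against 2 UMIs in 2 cells with a log2 interval of 0.88 to 5.81. The latter was short of 2-fold with the 10% mitochondrial limit and with the stricter gate (0.50).

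Timp2, an inhibitor that also takes part with Mmp14 in activating proMmp2, varied little in macrophages. The macrophage levels were 118 CPM in the control, 109 with 2DG, 117 with 2FF, 115 with anti-PD-L1, 107 with the 2DG combination and 99.7 with the 2FF combination, 1.18-fold from lowest to highest. In neutrophils, the next class with the few tumor cells left out, they were 81.2 CPM in the control, 90.1 with 2DG, 49.4 with 2FF, 94.3 with anti-PD-L1, 43.4 with the 2DG combination and 58.9 with the 2FF combination. Timp2 fell in neutrophils with 2DG plus anti-PD-L1 against anti-PD-L1 (log2 ratio -1.04, interval of the plain ratio -1.62 to -0.63), but not without cells of mixed markers (-0.65) or with equal weight per cell. Macrophage and neutrophil intervals overlapped in the 2DG and anti-PD-L1 libraries. Monocytes held 8.12 to 15.7 CPM and dendritic cells 1.3 to 4.03 CPM, below T cells at 27.9 to 31.3 CPM and NK cells at 26.3 to 67.3 CPM, so the gene was not limited to myeloid cells. In the tumor gate Timp2 rose 2.84 on the log2 scale with 2FF plus anti-PD-L1 against anti-PD-L1, against 1 UMI in 2 cells, with an interval of 0.60 to 8.42.

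Timp3, the inhibitor that stays bound to the matrix, was highest in dendritic cells among the neutrophil, monocyte, macrophage and dendritic gates. Dendritic levels were 8.36 CPM in the control, 16.1 with 2DG, 15.3 with 2FF, 15.2 with anti-PD-L1, 19.5 with the 2DG combination and 26.9 with the 2FF combination, 4.93- to 32.3-fold above the next of neutrophils, monocytes and macrophages, and no ratio passed 2-fold. NK cells reached 6.75 CPM with 2FF, on 9 UMIs. Neutrophils, monocytes and macrophages held at most 3.09, 3.99 and 1.06 CPM. Within dendritic cells most of the signal sat in the mature ones, those with at least 2 of Ccr7, Fscn1 and Ccl22. Mature cells held 23.2 CPM in the control, 45.6 with 2DG, 35.2 with 2FF, 32.9 with anti-PD-L1, 45 with the 2DG combination and 47.9 with the 2FF combination. They were 43.1% to 45.8% of dendritic cells and held 68.4% to 98.7% of the Timp3 UMIs of that class. Type 1 cells (Xcr1 or Clec9a) held 0 to 1.94 CPM and type 2 cells (Cd209a) 0 to 1.53 CPM. The remaining dendritic cells fell in none of these subsets. With the 2FF combination, mature cells held 39 of 57 Timp3 UMIs and type 1 and type 2 cells 0, so the rest lay in such cells. Syn3, the opposite-strand gene around Timp3, had the same split, at 329 to 516 CPM in mature, 0.713 to 16.1 in type 1 and 0 to 8.9 in type 2 cells. Of dendritic cells with a Timp3 UMI, 17 of 17 in the control, 30 of 31 with 2DG, 30 of 32 with 2FF, 35 of 35 with anti-PD-L1, 24 of 24 with the 2DG combination and 24 of 25 with the 2FF combination also had a Syn3 UMI, against 17.2 to 25.3% of the dendritic cells without one. Where reads of one gene were counted for the other, their levels cannot be told apart here, so the dendritic Timp3 level is uncertain.

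The tumor gate, absent from control, held Mmp14, Timp1 and Timp2 in all 5 treated libraries. Mmp14 was 128 to 273 CPM, Timp1 42 to 284 CPM and Timp2 21 to 312 CPM, with the lowest Timp values in the 2 cells of the anti-PD-L1 library. Timp3 was 0 to 64.9 CPM, with 42 UMIs in the 2FF combination and at most 4 in any other library. Mmp9, Mmp12, Mmp13 and Mmp19 had at most 6 UMIs in any library of this gate.

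Against control, the 8 genes gave 26 gene and class pairs with enough UMIs in each comparison. The genes were chosen with earlier results of these data known, so the shares set beside them describe and do not test. With 2DG, 2 pairs rose and 8 fell, while over all genes and classes tested 3.26% rose and 2.43% fell past 2-fold. With 2FF, 2 rose and 5 fell, beside 3.27% and 2.70% of all pairs. With anti-PD-L1, 4 rose and 5 fell, beside 2.87% and 1.91%. In all 3 comparisons the pairs that rose included Mmp9 in neutrophils and Timp1 in macrophages, and the pairs that fell included Mmp12, Mmp13 and Mmp19 in monocytes and Mmp12 in neutrophils. The 3 comparisons share the control library, so a likeness between them is not independent. Each of these falls was against the library in which T cells, too, held more Mmp12 and Mmp19, and also Mmp13 (1.28 CPM). Ungated cells were highest in control for Mmp12 (495 CPM), Mmp13 (51.7 CPM) and Mmp19 (91.9 CPM). Tied cells were highest in control for Mmp12 (272 CPM), but with the 2FF combination for Mmp13 and Mmp19. In NK and B cells none of Mmp12, Mmp13 and Mmp19 was highest in control.

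Among treated libraries, 2DG plus anti-PD-L1 against anti-PD-L1 gave 0 rises and 3 falls of 21 pairs, beside 0.872% rises and 0.784% falls among all pairs, and against 2DG alone 0 of 24 pairs changed, beside 1.08% and 1.36%. With 2FF plus anti-PD-L1 against anti-PD-L1, 4 of 27 pairs rose and 0 fell, beside 2.14% and 1.27%, and 2 of the 4 lay in the tumor gate. In that gate alone, 20.5% of the genes tested rose and 10.7% fell. Against 2FF alone, 5 of 29 pairs rose and 2 fell, beside 0.987% and 0.827%. These rises included Timp1 in the tumor gate, where 5.23% of the genes tested rose. Each gene had 32 class and comparison pairs, not all with enough UMIs. Of the pairs with enough, changes numbered 14 of 26 for Mmp12, 9 of 28 for Timp1 and 5 of 26 for Mmp19. They numbered 4 of 20 for Mmp9, 4 of 17 for Mmp13 and 2 of 29 for Mmp14. For Timp2 they were 2 of 24, and for Timp3 0 of 9. The shares among all pairs are those given above for each comparison.

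**Figure D2:**
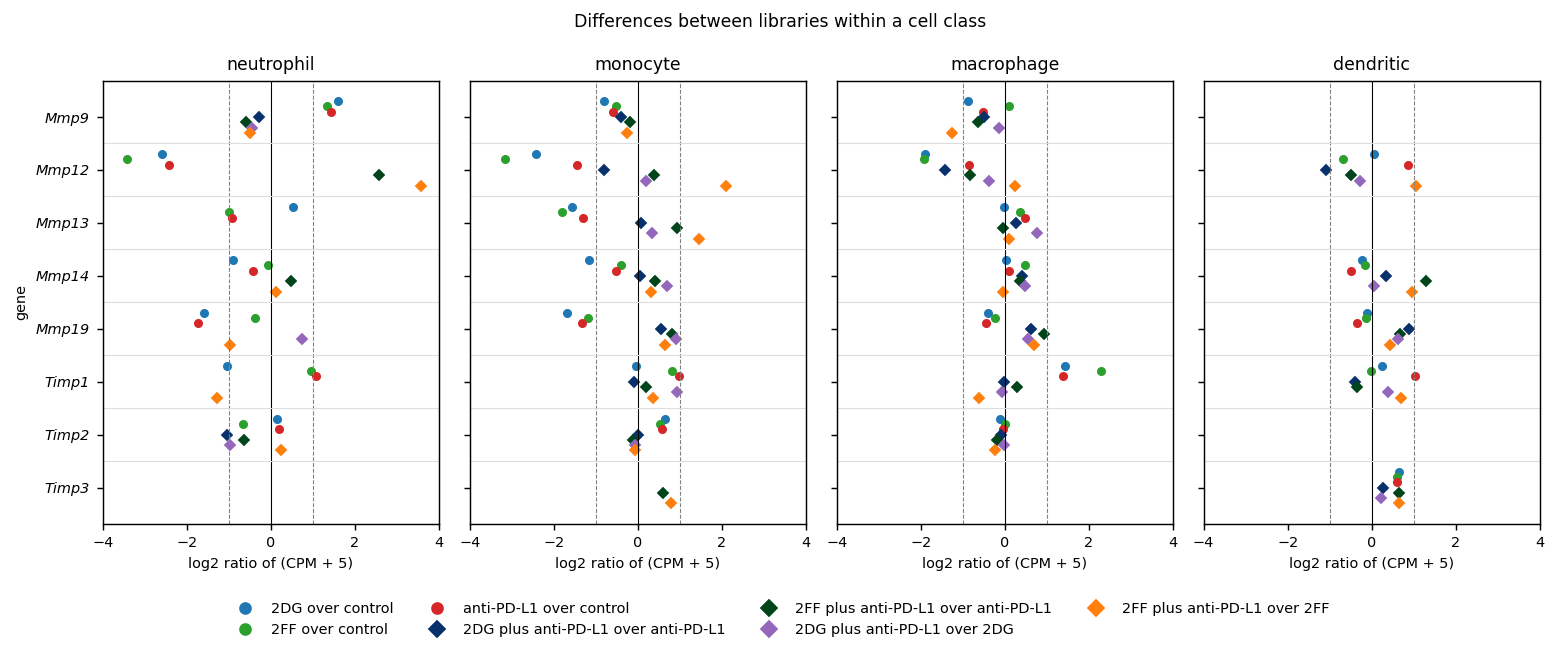
Log2 ratio of (CPM + 5) for each gene by class and comparison, for pairs with at least 50 UMIs over both libraries. Circles compare with control, diamonds compare treated libraries, and dashed lines mark 2-fold. Mmp12 in monocytes lies at -2.43, -3.15 and -1.44 against control and Timp1 in macrophages at 1.43, 2.29 and 1.39.

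The macrophage values were next split by Spp1 and Gpnmb, genes of a lipid-associated tumor macrophage state. Cells with a UMI of both numbered 73 in the control, 13 with 2DG, 25 with 2FF, 18 with anti-PD-L1, 15 with the 2DG combination and 20 with the 2FF combination. In them Mmp12 was 1853 CPM in the control, 712 with 2DG, 390.2 with 2FF, 1944 with anti-PD-L1, 625 with the 2DG combination and 1403 with the 2FF combination. In cells with neither, it was 301 CPM in the control, 103 with 2DG, 45 with 2FF, 115 with anti-PD-L1, 41.6 with the 2DG combination and 87.7 with the 2FF combination, lower in every library. Cells with both were 1.03% to 7.12% of macrophages and held 5.61% to 20.8% of their Mmp12 UMIs. The control library was above the 2DG, 2FF and 2DG plus anti-PD-L1 libraries in every subset, and in cells with both genes it was below anti-PD-L1 alone.

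Mmp13 in cells with both genes was 105 CPM in the control, 41.5 with 2DG, 44.9 with 2FF, 789.9 with anti-PD-L1, 193 with the 2DG combination and 382 with the 2FF combination. In cells with neither it was 19.3 CPM in the control, 21 with 2DG, 34.7 with 2FF, 17.2 with anti-PD-L1, 30.2 with the 2DG combination and 12.2 with the 2FF combination. The former were higher in every library, but with 2DG (6 UMIs) and 2FF (16 UMIs) the intervals of the subsets overlapped. Mmp14 lay at 118 to 258 CPM in cells with both genes and 162 to 232 CPM in cells with neither.

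Timp1 in macrophages with neither gene was 14.5 CPM in the control, 78.2 with 2DG, 201 with 2FF, 100 with anti-PD-L1, 112 with the 2DG combination and 115 with the 2FF combination. In cells with one of the genes it was 68.7 CPM in the control, 217 with 2DG, 341 with 2FF, 195 with anti-PD-L1, 195 with the 2DG combination and 225 with the 2FF combination, and in cells with both it spanned 45.6 to 362 CPM. The control was the lowest library in each of these subsets. Within single macrophages, Mmp12 was found in a larger share of the cells with an Mmp13 UMI (32.9 to 61.8% across libraries) than of the cells without (10 to 28.8%), in every library. The former were deeper in every treated library, with medians from 8895 against 8613 UMIs with anti-PD-L1 to 11520 against 9503.5 UMIs with 2FF. In control they were shallower, at 11273 against 12437 UMIs. Cells with a Timp1 UMI also had Mmp14 more often (76.1 to 88.8%) than cells without (54.8 to 66.8%), but they were deeper, with medians of 10439.5 to 15929 against 7887 to 11226 UMIs.

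**Figure D3:**
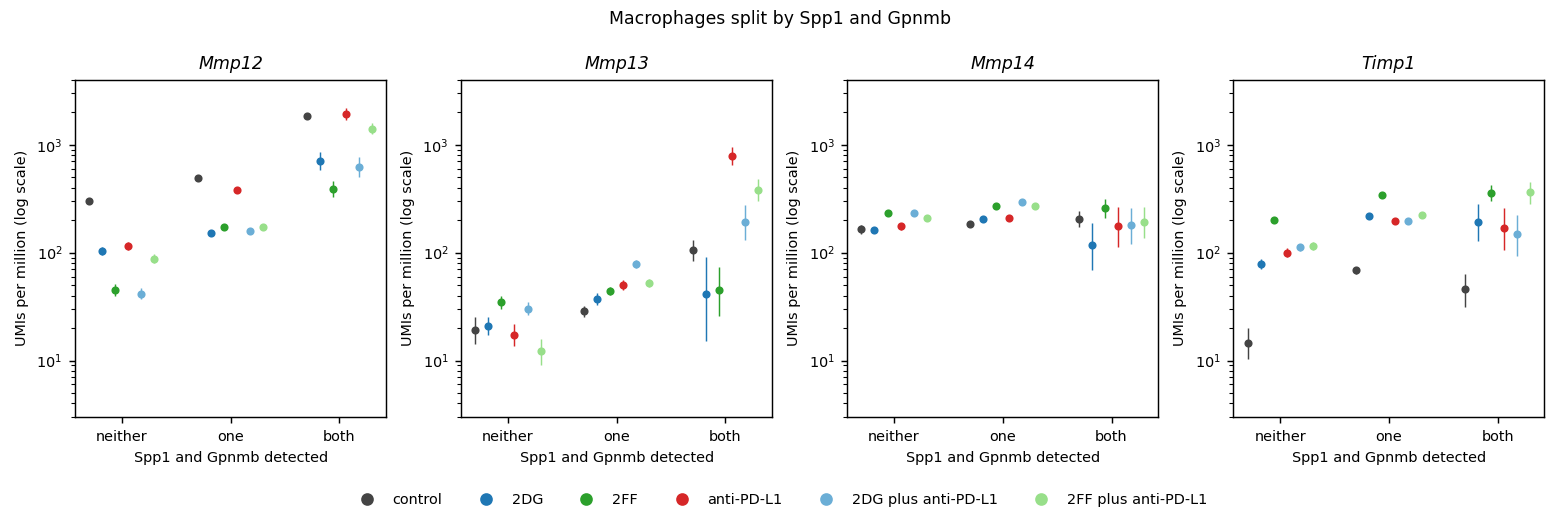
Levels (CPM, log axis) of Mmp12, Mmp13, Mmp14 and Timp1 in macrophages with neither, one or both of Spp1 and Gpnmb, 1 point per library with 95% Poisson bars. Mmp12 is higher with both genes than with neither in all 6 libraries, while Mmp14 stays between 118 and 258 CPM with both and 162 and 232 CPM with neither.

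From the monocytes, 2 subsets were taken: classical cells, with Ly6c2 and without Ace, and cells with Ace, a marker of the non-classical state. Monocytes with neither marker were left out. Classical and Ace cells were 31.2% and 13.3% of control monocytes, against 37.5% to 52.4% and 19.4% to 32.7% in the treated libraries. In control they held 42.2% and 11.3% of the monocytes' Mmp19 UMIs, and 21.2% and 3.12% of their Mmp12 UMIs. Mmp19 in classical cells was 333 CPM in the control, 104 with 2DG, 176 with 2FF, 135 with anti-PD-L1, 221 with the 2DG combination and 244 with the 2FF combination. In Ace cells it was 221 CPM in the control, 26.2 with 2DG, 41.2 with 2FF, 35.5 with anti-PD-L1, 38.6 with the 2DG combination and 62.3 with the 2FF combination. The classical cells were higher in every library, by the least in control. Timp1 had the same split, at 137 to 409 CPM in classical cells and 13.1 to 102 CPM in Ace cells, higher in the classical cells of every library. Mmp14 was 52.6 to 135 CPM in classical cells and 13.1 to 99 CPM in Ace cells, where the control was again the highest. Within classical monocytes alone, Mmp19 was still highest in control.

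Summed over all kept cells of a library, levels also depend on how many cells of each class it held. Mmp9 over all cells was 76.8 CPM in the control, 26.7 with 2DG, 25.4 with 2FF, 18.7 with anti-PD-L1, 13.5 with the 2DG combination and 14.5 with the 2FF combination, highest in control, the reverse of its level within neutrophils, and neutrophils gave 76.5% to 92.2% of its UMIs. Mmp12 over all cells was 204 CPM in the control, 44.7 with 2DG, 48.3 with 2FF, 89.2 with anti-PD-L1, 40.8 with the 2DG combination and 79.4 with the 2FF combination. Timp1 over all cells was 66.8 CPM in the control, 78.2 with 2DG, 157 with 2FF, 123 with anti-PD-L1, 112 with the 2DG combination and 166 with the 2FF combination, lowest in control. Timp2 over all cells was 49.3 CPM in the control, 45.1 with 2DG, 48.7 with 2FF, 40.4 with anti-PD-L1, 43.7 with the 2DG combination and 42 with the 2FF combination, nearly level, yet neutrophils gave 45.7% of its UMIs in control and 1.8% to 5.9% in the treated libraries, and T cells 2.75% and 17.6% to 22.3%.

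**Figure D4:**
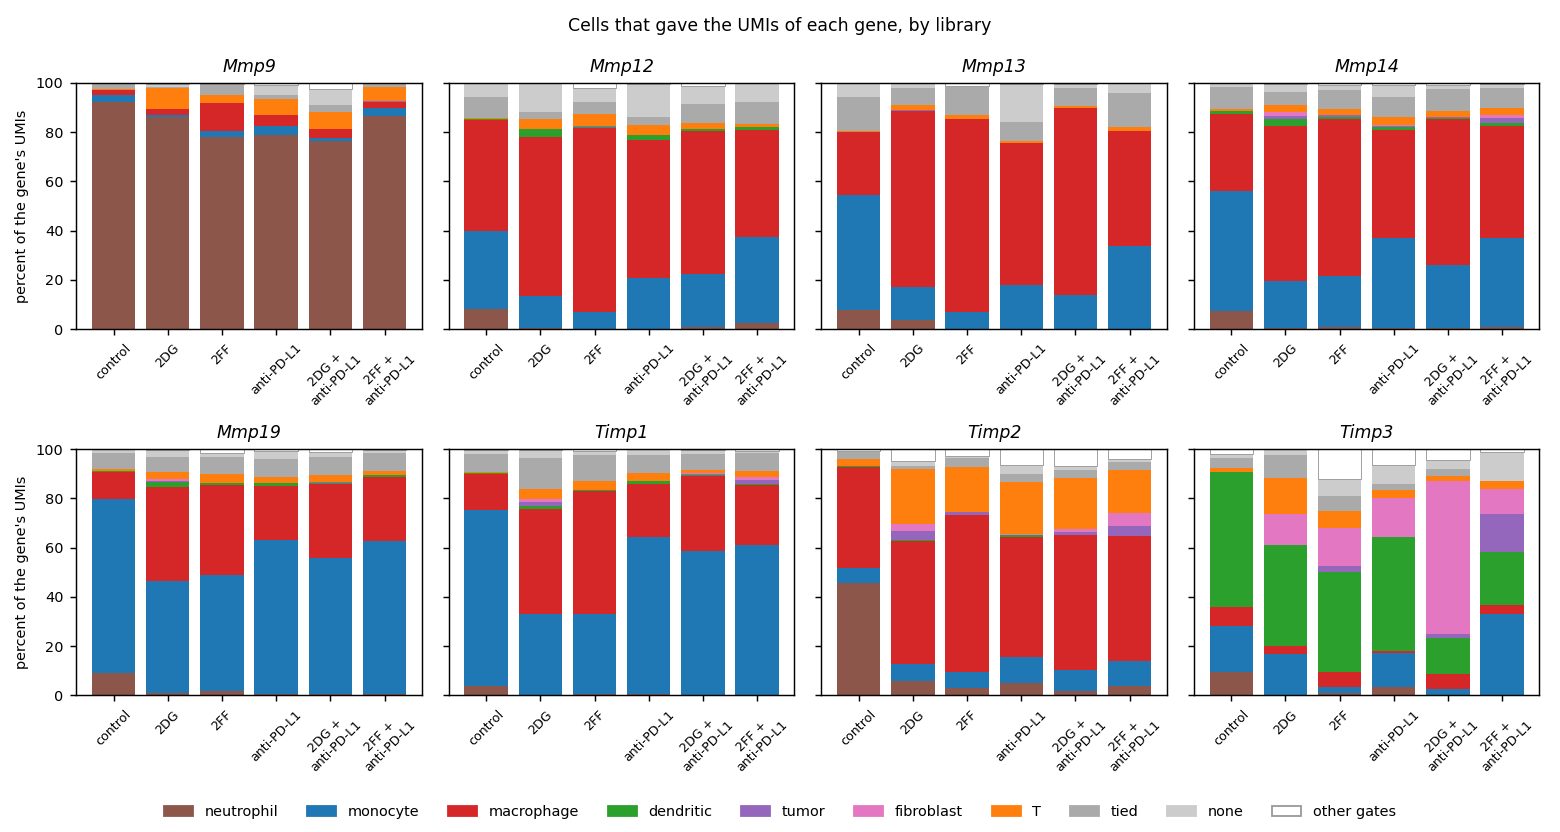
Percent of each gene's UMIs that came from each gate, as stacked bars by library. Neutrophils give 76.5% to 92.2% of Mmp9 in every library, and their part of Timp2 drops from 45.7% in control to at most 5.9% in the treated libraries.

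The make-up of the 8 genes' UMIs was set out as the percent that came from the 5 metalloproteases. UMIs were counted at the 3′ end, and how well each gene is captured is not known, so only libraries can be compared, not proteases with inhibitors. In monocytes the percent was 81.7% in the control, 54.7% with 2DG, 49.4% with 2FF, 49.5% with anti-PD-L1, 53.2% with the 2DG combination and 57.1% with the 2FF combination. The control, at 81.7% (81.2% to 82.2%) with its 95% interval, lay above all treated libraries. In macrophages it was 82.9% in the control, 61.3% with 2DG, 55.8% with 2FF, 69% with anti-PD-L1, 66.9% with the 2DG combination and 66.7% with the 2FF combination, again highest in control, at 82.9% (82.2% to 83.5%). Neutrophils had another order, 81.4% in the control, 89.9% with 2DG, 90.8% with 2FF, 85.8% with anti-PD-L1, 91.8% with the 2DG combination and 89.8% with the 2FF combination, with control lowest. Dendritic cells had 71.8% in the control, 62% with 2DG, 61.4% with 2FF, 58.4% with anti-PD-L1, 58.7% with the 2DG combination and 65% with the 2FF combination.

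**Figure D5:**
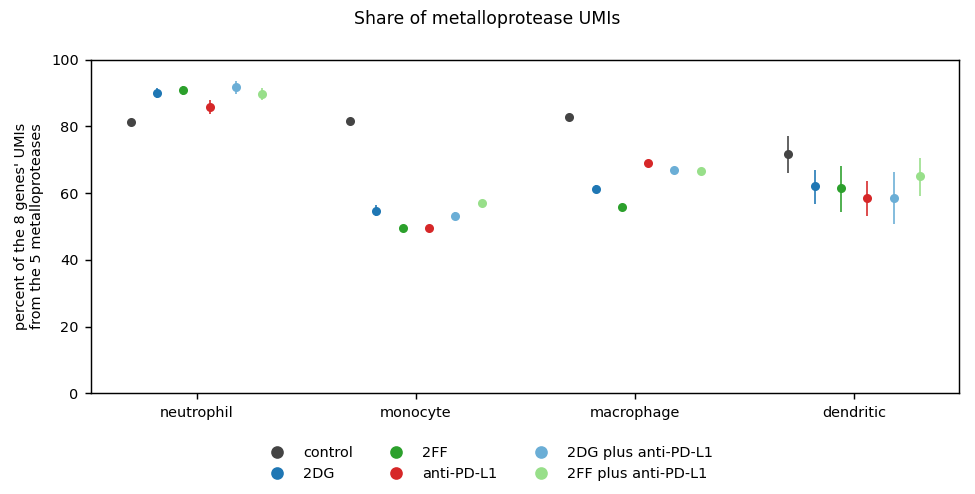
Percent of the UMIs of all 8 genes that came from the 5 metalloproteases, by class and library, with Clopper-Pearson 95% bars. Control is highest in monocytes (81.7% against 49.4% to 57.1%) and macrophages (82.9% against 55.8% to 69%) and lowest in neutrophils (81.4% against 85.8% to 91.8%).

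The rest of the pathway was described by 56 genes in 4 lists, other metalloproteases with Timp4 and Reck, activators and regulators, other proteases, and matrix substrates. These lists, too, were chosen with earlier results known, so shares beside them are a description. Of the 18 genes in the first list, Mmp8, the neutrophil collagenase, and Mmp25, a membrane-anchored protease, exceeded 50 CPM in an immune class. Mmp8 in neutrophils was 382 CPM in the control, 363 with 2DG, 165 with 2FF, 559.6 with anti-PD-L1, 132 with the 2DG combination and 273 with the 2FF combination. It fell there with 2FF against control and with the 2DG combination against both anti-PD-L1 and 2DG. Mmp8 also fell in neutrophils with the 2FF combination against anti-PD-L1. In monocytes Mmp8 was 100.4 CPM in control and 17.3 to 26.9 CPM in the treated libraries, and it fell in each comparison with control. Macrophages showed the same falls, from 34.6 CPM in control to 2.51 with 2DG, 2.46 with 2FF and 9.17 with anti-PD-L1. Neutrophil markers, too, summed to more in control macrophages, 593 CPM against 238 to 298 CPM in treated libraries, and to more in control monocytes, as given above. What part RNA of neutrophils had in the Mmp8 values of both classes was not tested. Mmp25 was led by dendritic cells at 137 to 208 CPM. In neutrophils it rose from 35.8 CPM in control to 86.2 with 2DG and 128 with anti-PD-L1. It fell there with the 2DG combination against anti-PD-L1, to 41.7 CPM. Monocytes showed a rise of Mmp25 with anti-PD-L1, from 1.23 CPM in control to 7.69.

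Of 11 activators and regulators with enough UMIs in monocytes, 5 fell with 2DG, 4 with 2FF and 3 with anti-PD-L1, and 0 rose. Lcn2, a leading gene of the neutrophil gate, was among those that fell in each comparison, and the part of neutrophil RNA was not tested. Over all monocyte genes tested, low ones included, 3.12%, 2.66% and 2.13% fell and 3.95%, 3.79% and 3.90% rose. The activators' median log2 ratios were -0.66, -0.72 and -0.55, beside 0.15, 0.11 and 0.13 for all genes tested. Furin, which cuts the propeptide of Mmp14, stood in monocytes at 623 CPM in control and 186 to 357 CPM in the treated libraries, and it fell with 2DG and 2FF. Lcn2, whose protein binds Mmp9, was in neutrophils at 899.7 CPM in the control, 2677 with 2DG, 1017 with 2FF, 2657 with anti-PD-L1, 1485 with the 2DG combination and 1939.5 with the 2FF combination. It rose there with 2DG and with anti-PD-L1 over control.

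Of 9 other proteases in monocytes, 2 fell in each comparison with control and 0 rose, beside 3.12%, 2.66% and 2.13% of all monocyte genes that fell, and they were Adam8, a shedding protease, and Ctsl, a lysosomal cathepsin. Adam8 was 442 CPM in control and 75.4 to 135 CPM in the treated libraries. Ctsl was 765 CPM in control and 204 to 316 CPM in the treated libraries. Among the matrix substrates in monocytes, 2 of 4 fell with 2DG, 2 of 4 with 2FF and 2 of 5 with anti-PD-L1, and 0 rose, beside the same shares. These were Fn1, fibronectin, at 3047 CPM in control and 774 to 1463 CPM in the treated libraries, and Vcan, versican, which is also a marker used for the gate. In macrophages Fn1 stayed within 2068 to 2639 CPM.

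Over 29 points, the class and library sums with cells, the genes most like each member by Pearson correlation of log2(CPM + 5) were picked from 9941 genes with at least 1000 UMIs. The points share libraries and gates, so r is a description. Mmp9 was nearest to Cxcr2, a chemokine receptor used for the neutrophil gate (r = 0.986), Il1f9 (0.985) and Chil1 (0.984). Mmp12 was nearest to Bach2os (0.899), Kcnk13 (0.894) and Lpl, lipoprotein lipase (0.888). Mmp13 came with Fcrlb (0.922), Nxpe5 (0.91) and Ccl7, a monocyte chemokine (0.908), and Mmp14 with Rai14 (0.932), Sdc4, syndecan-4 (0.932) and Slc39a14 (0.923). The nearest to Mmp19 were Ednrb (0.923), Gm47093 (0.919) and Gm49144 (0.915). Timp1 was nearest to Sdc4 (0.915), Emp3 (0.893) and Mcub (0.882), Timp2 to Ptgs1, a cyclooxygenase (0.939), Rtn3 (0.846) and Lhfpl2 (0.84), and Timp3, on 557 UMIs, to Insl6 (0.877), Fgfr1op (0.864) and Dbn1 (0.857).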

How the data were processed

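Cells of 6 libraries, 1 mouse a group, were profiled with a 10x 3′ v3.1 kit that captures polyadenylated RNA. The authors deposited filtered matrices of UMI counts, not normalized, for 57078 cells and 32285 genes, aligned to mm10 with STAR within Cell Ranger. Per the file headers the version was 7.0.0, while the labels name 3.1.0. The authors' own limits for cells, at least 250 genes and no more than 5% of UMIs from mitochondrial genes, were applied again here and left 51633 cells. No batch correction was made.

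Cells were gated on fixed marker panels. A cell took the class with the most of its panel detected, with at least 3 markers of the panel of 8, or 2 for dendritic and short panels, and 1929 tied and 3491 ungated cells were set aside. The need of 3 for fibroblast and endothelial cells and 2 for dendritic cells was chosen after the cells were seen. Doublets were not called, and an alternative left out cells with at least 3 markers of a second class. UMIs were summed per class and library and scaled to CPM of the class, and ratios are differences of log2(CPM + 5), which understates changes of low genes. Intervals of ratios are of the plain CPM ratio and need not bracket it. With 1 library a group no test was run, and the study's test over cells was not used. All 8 members are named in every class. Values of other pathway genes are given only where past 2-fold or above 50 CPM, but not for every gene that met this. For each member, 3 genes are named by likeness. The values of one pathway gene are not reported here. The members and lists were chosen with earlier results of these data known. Alternatives covered the added CPM, the UMI minimum, TMM scaling (edgeR 4.0.16 in R 4.3.3), centring, the mitochondrial limit, a stricter gate, thinning to 1000 UMIs and equal weight per cell. Scripts ran in Python 3.11.15 with numpy 2.4.6, scipy 1.17.1, pandas 2.3.3 and matplotlib 3.10.9, and were checked on simulated counts.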

Additional observations from a re-analysis of the deposited data

Results flagged for a closer look

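Timp1 moved in opposite directions in 2 classes under the same comparison. With 2DG against control its log2 ratio was 1.43 in macrophages and -1.04 in neutrophils, the latter on 3 UMIs in the 2DG library. With 2FF plus anti-PD-L1 against 2FF it was 1.02 in the tumor gate and -1.28 in neutrophils, the former on 17 and 12 cells and short of 2-fold with the stricter gate (0.50). With 1 library a group these differences were not tested.

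Signal also appeared in cells outside the 5 classes. Cells that met no gate held 216 CPM of Mmp12 over all libraries, beside 215.7 CPM in macrophages, and their leading genes included haemoglobin genes, Pparg and Adgre4. The fibroblast gate, 28 cells of which 0 were in control, held 227 CPM of Mmp14, 273 CPM of Timp1, 333 CPM of Timp2 and 280.2 CPM of Timp3 over all libraries. Its Timp3 level ranged from 58.6 CPM in 10 cells of the 2FF combination to 1982 CPM in 4 cells of the 2DG combination.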

How the results depend on the processing

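Of the 40 changes past 2-fold, 28 held in every alternative that gave a value. No replicate could be left out with 1 library a group. No paired analysis was possible because the labels give no replicate numbers that groups share, and the libraries with and without anti-PD-L1 were not fitted as pairs. Against control, counts stayed within 1.5 times under every alternative, except that anti-PD-L1 gave 5 in place of 9 without cells of mixed markers. For 2DG plus anti-PD-L1 against anti-PD-L1 (3), the count was 5 with 1 CPM added, 8 with no UMI minimum and 1 with at least 200 UMIs. For 2FF plus anti-PD-L1 against anti-PD-L1 (4), it was 7 with 1 CPM added, 7 with no minimum, 0 with at least 200 UMIs, 1 after thinning and 2 with the tumor class left out, an alternative chosen after seeing that its gate held few cells. For 2DG plus anti-PD-L1 against 2DG (0), it was 1 with 1 CPM added, 5 with no minimum, 2 with TMM scaling, 1 with the stricter gate, 1 without mixed markers, 1 after thinning and 3 with equal weight per cell. For 2FF plus anti-PD-L1 against 2FF (7), it was 4 with at least 200 UMIs and 2 after thinning. The ratio of Mmp12 in dendritic cells with 2DG plus anti-PD-L1 against anti-PD-L1 turned from -1.08 to 0.34 with equal weight per cell. Of the changes lost, 11 of 11 under the 200 UMI minimum and 14 of 15 after thinning lacked enough UMIs, as did 2 of 5 with the stricter gate and 3 of 8 without mixed markers. For the others the cause was not tested. Few UMIs stood behind the tumor gate, Timp1 and Mmp13 in neutrophils and Timp3, and the spread between mice is unknown.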
